A study of Mus musculus with 8 samples.

Results

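Transcripts of cholesterol synthesis, fatty acid synthesis and their SREBP control were described in LSK cells of mice with chronic myeloid leukaemia (CML). LSK cells are bone marrow cells sorted for Sca-1 and c-Kit and against lineage markers, and they include stem cells and early progenitors. The genes were taken by name from a fixed list, and all 35 were found among the 48795 genes of the deposited count table. They comprised 7 genes of SREBP control, 20 of sterol synthesis and transport (8 of the mevalonate steps, 11 of the sterol branch and the carrier gene Stard4) and 8 of fatty acid synthesis. All 35 were above the filter on low counts, which kept 14178 genes.

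The mice were C57BL/6, and all had CML induced for 10 weeks. The control group held 4 libraries from cre- mice, and the Sirt1-deleted group 4 libraries from cre+ mice with SIRT1 deleted. SIRT1 is an NAD-dependent protein deacetylase. The sources used here name neither the driver of Cre nor the way CML was induced. The libraries are described as biological replicates and are numbered here by order of deposit.

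SREBPs are transcription factors made as precursors in the membrane of the endoplasmic reticulum. When sterols are scarce, the escort protein Scap carries them to the Golgi apparatus, where the site-1 protease (gene Mbtps1) and then the site-2 protease (gene Mbtps2) release the active part. When sterols are abundant, Insig proteins hold Scap and the precursor back. Srebf2 encodes the form best known for sterol synthesis genes and Srebf1 the forms best known for fatty acid genes. The control is largely on cleavage of the protein, which transcript counts do not measure.

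Library totals over genes ran from 18252562 to 34280925 counts, and 15316 (control 2) to 20342 genes had at least 1 count. Levels are given as CPM, counts scaled to library size by TMM. For Sirt1 the controls averaged 13.1 ± 4.92 CPM and the Sirt1-deleted libraries 10.9 ± 4.24 (SD, n = 4 each), with log2 fold change -0.26 (SE 0.39) and edgeR adjusted p = 0.797. A count over the whole gene does not show missing exons, and here it did not separate the genotypes. Kit and Ly6a, the genes of the sort markers c-Kit and Sca-1, had at least 684 and 4188 counts in every library. Transcripts of mature cells were also present in every library. Summed levels of 10 neutrophil markers ran from 2094 to 5454 CPM (controls) and from 1221 to 2795 (Sirt1-deleted). Immunoglobulin genes took from 0.867 to 12.96% of the counts.

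No member passed the test between genotypes, while most members had positive fold changes. Of the 35 members 0 were called at an adjusted p under 0.05 (edgeR quasi-likelihood F test, two-sided, Benjamini-Hochberg over all 14178 genes). Of all genes tested, 12 were called (0.0846%), 0.0494% higher and 0.0353% lower. At an unadjusted p under 0.05, 8 members were higher in Sirt1-deleted libraries (22.9%) and 0 lower, against 7.55% and 8.6% of all genes. With each library's trend with gene length and GC content removed, 1 member was higher and 1 lower at that threshold. In that setting 1794 of 14146 genes had such a p, and the median log2 fold change of all genes was -0.20. The groups did not overlap for 7 of 35 members, all higher, against 6.64% of all genes higher and 6.44% lower. The median log2 fold change of the members was 0.36, with 26 of 35 positive, and that of all genes was 0.06, with 53.9% positive. On the same libraries DESeq2 called 5 members, all higher (Srebf2, Mbtps1, Sqle, Elovl5 and Fads1), where it called 8.01% of all genes, 3.1% higher. Limma-voom with quality weights called 3 of the 35, also higher (Srebf2, Mbtps1 and Dhcr7), and 8.03% of all genes, 2.65% higher, so its share of members called was near that of all genes called in either direction. EdgeR itself called Srebf2 and Mbtps1 when Sirt1-deleted 1 was left out (adjusted p = 0.0367 and 0.0331), and 0 members without any other single library. Without Sirt1-deleted 1 it called 3.05% of all genes, 0.535% higher.

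The promoters of Sqle, Fdft1, Fads1, Fdps, Scd1, Scd2 and Stard4 were not in the RefSeq table for GRCm38.p6 and could not be searched. Those of the other 28 members were there, with 36 starts. Each was searched on both strands over the 250 bases before the start for the SREBP-type motif TCACNCCAC, for CCAAT, which the factor NF-Y binds, and for GGGCGG, which the factor Sp1 binds. At least 1 CCAAT was found in 21 of the 28 members (75.0%), against 37.5% of the 27025 genes of the table. GGGCGG was likewise found in 21 (75.0%, against 35.4%), and TCACNCCAC in 1, Hmgcs1 (3.57%, against 1.22%). The shorter TCACNCCA, searched after the sequences of Srebf2 and Hmgcs1 had been seen, was found in Hmgcs1, Msmo1 and Srebf2 (10.7%, against 4.20%). All 28 members had passed the filter on low counts, whereas the 27025 genes were not limited to expressed genes. The part of that difference in these shares was not tested. A match is a description of letters and not a site. The stretches below are given because Srebf2 and Mbtps1 had the smallest p, Hmgcs1 held the full motif, and Elovl5 separated the groups with CCAAT matches alone. They are written 5′ to 3′ on the strand of the gene, with matches to any of these motifs in capitals. A match on the other strand appears as its reverse complement (CCAAT as ATTGG), every TCACNCCAC also holds TCACNCCA, and bases inside the GENCODE gene are left off. They are chr15:82147019-82147180 (plus) for Srebf2, chr8:119558762-119559011 (minus) for Mbtps1, chr13:119690101-119690350 (plus) for Hmgcs1 and chr9:77917115-77917363 (plus) for Elovl5.
Srebf2: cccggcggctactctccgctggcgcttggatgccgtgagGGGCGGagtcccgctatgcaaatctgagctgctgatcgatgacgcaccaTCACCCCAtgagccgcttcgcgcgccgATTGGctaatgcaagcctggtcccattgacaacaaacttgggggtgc
Mbtps1: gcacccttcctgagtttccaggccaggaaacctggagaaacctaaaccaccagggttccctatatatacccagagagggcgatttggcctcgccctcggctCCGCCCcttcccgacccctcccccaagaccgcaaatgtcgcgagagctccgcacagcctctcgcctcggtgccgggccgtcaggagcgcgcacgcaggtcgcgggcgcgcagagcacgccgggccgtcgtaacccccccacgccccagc
Hmgcs1: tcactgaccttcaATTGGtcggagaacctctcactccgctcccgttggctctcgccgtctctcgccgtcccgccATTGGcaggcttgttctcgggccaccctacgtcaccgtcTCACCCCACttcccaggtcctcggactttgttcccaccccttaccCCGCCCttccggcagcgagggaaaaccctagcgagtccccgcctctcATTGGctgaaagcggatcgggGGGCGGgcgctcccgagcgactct
Elovl5: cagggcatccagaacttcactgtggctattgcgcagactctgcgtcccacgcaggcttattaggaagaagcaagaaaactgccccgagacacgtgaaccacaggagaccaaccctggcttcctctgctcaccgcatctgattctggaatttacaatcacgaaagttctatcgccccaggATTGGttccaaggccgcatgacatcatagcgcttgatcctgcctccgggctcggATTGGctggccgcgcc
In the Srebf2 stretch the shorter motif begins 162 bases before the RefSeq start, and 1 CCAAT lies 135 bases before it on the other strand. The Mbtps1 stretch holds 1 GGGCGG match and no other. In Hmgcs1 the full motif begins 137 bases before the start, between CCAAT matches that begin 237, 176 and 45 bases before it.

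The SREBP control genes differed among themselves. Srebf2 and the site-1 protease gene Mbtps1 had the smallest p of the members and ranked 57 and 22 among all genes tested. The precursor gene Srebf1 and the Insig genes had positive fold changes as well, whereas the escort gene Scap was near zero and the site-2 protease gene Mbtps2 was negative. The median log2 fold change of the 7 genes was 0.60.

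Srebf2 (ENSMUSG00000022463.7, chromosome 15, 82147181 to 82205379, plus strand, GRCm38) was at 103, 79.8, 126 and 126 CPM in controls 1 to 4 and at 180.1, 213, 219.6 and 209 CPM in Sirt1-deleted 1 to 4. Every Sirt1-deleted library was above every control. The means were 109 ± 22.04 and 205 ± 17.4 CPM (SD, n = 4 per genotype). On the log2 scale the difference was 0.92 ± 0.16 (SE; edgeR adjusted p = 0.0858). Removing each library's trend with gene length and GC content left 0.48 (adjusted p = 0.339), a setting in which the median of all genes moved from 0.06 to -0.20.

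Mbtps1 (ENSMUSG00000031835.16, chromosome 8, 119508156 to 119558735, minus strand, GRCm38) was at 85.9, 93.6, 90.7 and 76.1 CPM in controls 1 to 4 and at 134, 163, 158 and 156 CPM in Sirt1-deleted 1 to 4. The groups did not overlap, and Sirt1-deleted 1 was the lowest of its group, as it was for Srebf2. The means were 86.6 ± 7.68 and 153 ± 13.1 CPM, and the log2 difference was 0.82 ± 0.12 (edgeR adjusted p = 0.0565). It was called when immunoglobulin genes were left out of the table (adjusted p = 0.0495), where 0.0854% of all genes were called higher. Without the length and GC trend its log2 fold change was 0.27 (adjusted p = 0.666), where the median of all genes was -0.20.

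Srebf1 was at 161, 121, 162 and 129 CPM in controls 1 to 4 and at 245, 158, 210.2 and 193 CPM in Sirt1-deleted 1 to 4. The groups overlapped through Sirt1-deleted 2, which lay below controls 1 and 3. Its log2 fold change was 0.49 ± 0.16 (edgeR adjusted p = 0.192), and 0.11 without the length and GC trend (median of all genes -0.20). Scap was at 116, 181, 171 and 123 CPM in controls and at 123, 136, 155 and 164 CPM in Sirt1-deleted libraries. The range of its Sirt1-deleted libraries lay inside that of the controls, and the log2 fold change was -0.03 ± 0.18 (adjusted p = 0.954).

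The Insig genes were much lower in CPM and had a wide spread among controls. Insig1, itself a known target of SREBPs, was at 12.3, 2.05, 6.26 and 10.9 CPM in controls 1 to 4 and at 12.7, 11.8, 16.3 and 20.4 CPM in Sirt1-deleted 1 to 4. Insig2 was at 17.0, 2.88, 5.37 and 10.2 CPM in controls and at 13.9, 12.3, 10.7 and 16.9 CPM in Sirt1-deleted libraries. Control 2, the library with the fewest detected genes, was the lowest for both. Their log2 fold changes were 0.96 ± 0.52 and 0.60 ± 0.51 (edgeR adjusted p = 0.410 and 0.623), and both moved when single controls were left out. That of Insig1 was 0.60 without control 2, and that of Insig2 was 0.27 without control 2, 0.40 without control 3 and 1.09 without control 1. Mbtps2 was at 5.42, 13.1, 3.77 and 4.12 CPM in controls and at 4.02, 6.15, 4.69 and 3.60 CPM in Sirt1-deleted libraries. Here control 2 was the highest, and the log2 fold change of -0.52 was 0.015 without it. Exons of Mbtps2 share 28.4% of their length with Yy2 on the same strand, so its count is uncertain.

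**Figure D1:**
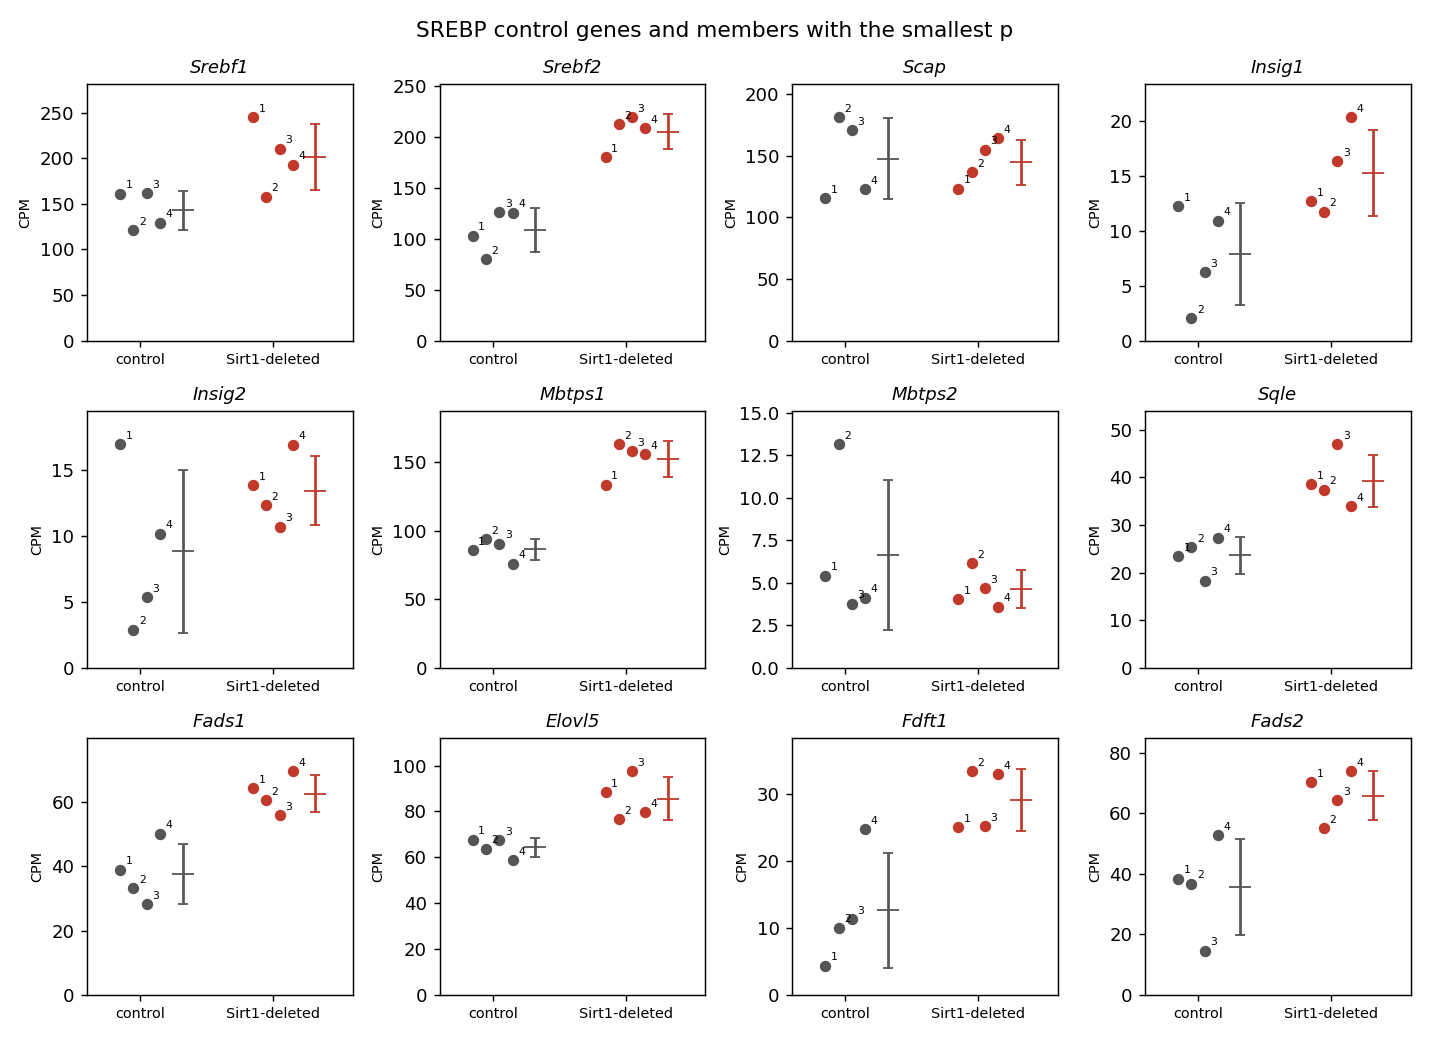
CPM (y axis, from 0) of the 7 SREBP control genes and of the other members with the smallest p in 4 control (grey) and 4 Sirt1-deleted (red) libraries. Points are libraries with their replicate numbers, and bars are the mean and SD. Srebf2, Mbtps1, Sqle, Fads1, Elovl5, Fdft1 and Fads2 do not overlap between the groups, while Srebf1, Scap, Insig1, Insig2 and Mbtps2 do.

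The mevalonate enzymes, which make isoprenoid units from acetyl-CoA, had log2 fold changes on both sides of 0. The median over their 8 genes was -0.06 on the log2 scale. Of these, 3 were positive, where 53.9% of all genes were. At an unadjusted p under 0.05, 0 were higher and 0 lower, against 7.55% and 8.6% of all genes. Hmgcs1, the synthase that makes HMG-CoA, was at 27.7, 17.0, 6.81 and 21.9 CPM in controls and at 32.6, 29.6, 30.2 and 22.5 CPM in Sirt1-deleted libraries. It was highest of the 8 in fold change, at 0.65 ± 0.38 on the log2 scale (edgeR adjusted p = 0.463), and 0.34 without control 3. Every Sirt1-deleted library was above controls 2, 3 and 4, and control 1 lay within the Sirt1-deleted range. The thiolase gene Acat2 (log2 fold change 0.23) and the isomerase gene Idi1 (0.32) were also positive. The kinase genes Mvk (-0.19) and Pmvk (-0.03), the decarboxylase gene Mvd (-0.15) and the farnesyl diphosphate synthase gene Fdps (-0.08) were slightly negative. Ggps1, whose product makes the geranylgeranyl donor for protein prenylation, was the lowest at -0.41 ± 0.25 (adjusted p = 0.468). The counts of Idi1 and Fdps were small, at 21 to 87 and 39 to 125 per library, and 26.7% of the exon length of Fdps is shared with Gm43738 on the same strand.

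The sterol branch, from squalene synthesis onward, had mostly positive fold changes. Of its 11 genes 10 were positive (median 0.46 on the log2 scale), where 53.9% of all genes were. At an unadjusted p under 0.05, 2 of the 11 were higher (18.2%) and 0 lower, against 7.55% and 8.6% of all genes. Sqle, the squalene epoxidase gene, was at 23.5, 25.4, 18.3 and 27.3 CPM in controls 1 to 4 and at 38.5, 37.4, 47.0 and 34.0 CPM in Sirt1-deleted 1 to 4. The groups did not overlap. The means were 23.6 ± 3.89 and 39.2 ± 5.51 CPM, and the log2 difference was 0.73 ± 0.19 (edgeR adjusted p = 0.136). This difference was 0.32 without the length and GC trend, where the median of all genes was -0.20.

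Fdft1, the squalene synthase gene that opens the branch, was at 4.34, 10.0, 11.2 and 24.7 CPM in controls 1 to 4. In Sirt1-deleted 1 to 4 it was at 25.0, 33.3, 25.1 and 32.9 CPM. The groups were apart by the small gap between control 4 and Sirt1-deleted 1. The log2 fold change was 1.21 ± 0.46 (edgeR adjusted p = 0.247), the largest of the members. It was 0.88 without control 1 and 1.77 without control 4. Of the exon length of Fdft1, 18.3% overlaps exons of Ctsb on the other strand, and reads there cannot be assigned by strand in these libraries. Ctsb itself had a log2 fold change of 0.16.

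The later enzymes of the branch overlapped between the groups. Dhcr7, whose product reduces 7-dehydrocholesterol to cholesterol, was at 18.5, 49.5, 17.9 and 26.9 CPM in controls and at 37.5, 42.7, 53.3 and 49.8 CPM in Sirt1-deleted libraries. Only control 2 reached the Sirt1-deleted range, and the log2 fold change of 0.70 ± 0.34 (edgeR adjusted p = 0.354) was 1.08 without control 2. Without the length and GC trend that of Dhcr7 was 0.16, where the median of all genes was -0.20. The demethylase gene Cyp51 (log2 fold change 0.64), the desaturase gene Sc5d (0.52), the methyl sterol oxidase gene Msmo1 (0.46) and the cyclase gene Lss (0.39) were positive, and so were Hsd17b7 (0.35), Ebp (0.25) and Nsdhl (0.18). Without control 3 the values of Cyp51 and Msmo1 were 0.36 and 0.13. The reductase gene Tm7sf2 was the exception at -0.50 ± 0.73 (adjusted p = 0.786). Its controls ran from 0.831 CPM in control 3 to 15.3 in control 2, a range that holds all 4 Sirt1-deleted libraries. Stard4, a cytosolic sterol carrier gene, was at 11.2, 2.49, 8.75 and 13.7 CPM in controls and at 5.52, 15.7, 20.6 and 18.9 CPM in Sirt1-deleted libraries, with a log2 fold change of 0.75 ± 0.57 (adjusted p = 0.577) that was 0.40 without control 2.

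**Figure D2:**
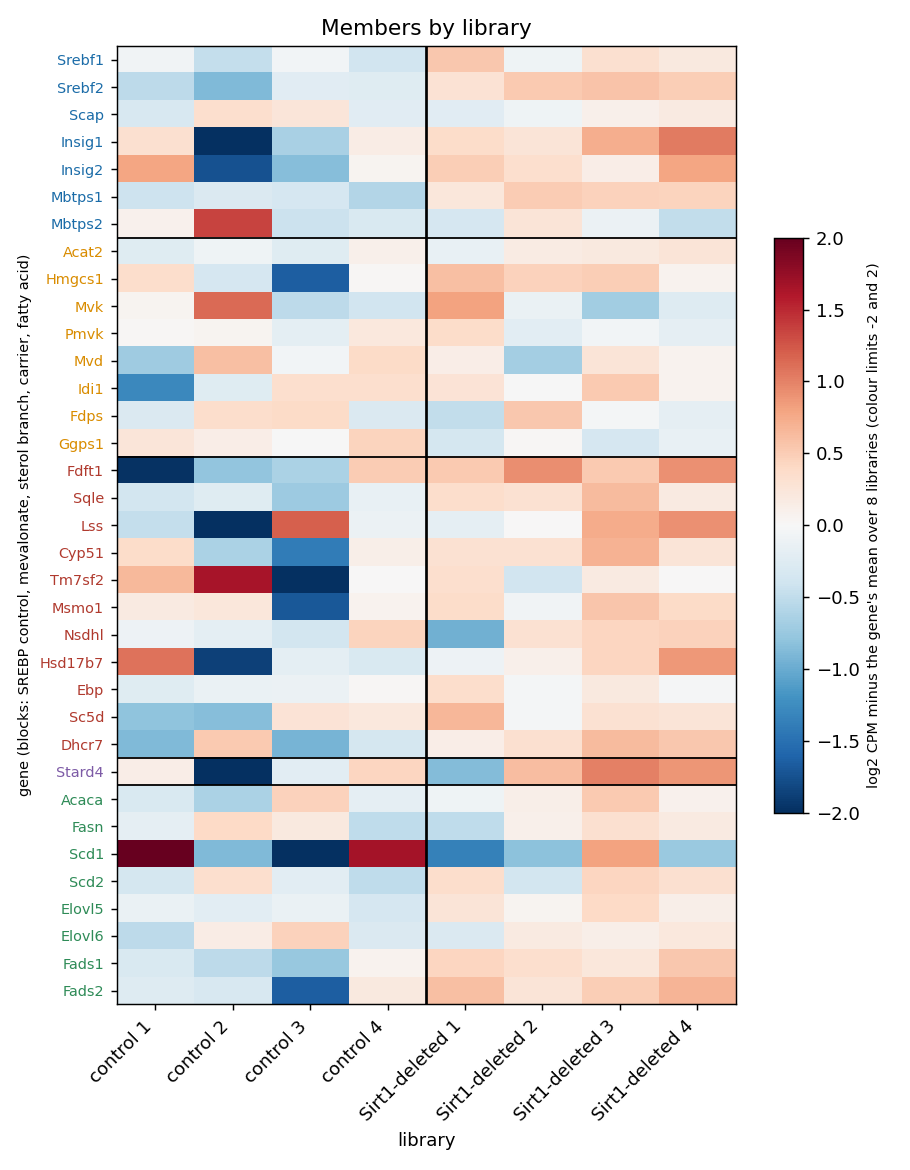
Log2 CPM of each member (rows) minus its mean over the 8 libraries (columns), with blocks for SREBP control, mevalonate enzymes, sterol branch, carrier and fatty acid enzymes. The sterol branch is mostly red in the Sirt1-deleted libraries and the mevalonate block is mixed. The strongest colours are in single control libraries, such as control 1 for Scd1, control 3 for Tm7sf2 and control 2 for Insig1.

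Of the 8 fatty acid genes 3 did not overlap between the groups (Fads1, Fads2 and Elovl5, all higher), where 6.64% of all genes were higher without overlap. The median of the 8 was 0.32 on the log2 scale, and 7 were positive, where 53.9% of all genes were. Fads1, the delta-5 desaturase gene, was at 38.9, 33.2, 28.1 and 50.1 CPM in controls 1 to 4 and at 64.4, 60.5, 55.8 and 69.5 CPM in Sirt1-deleted 1 to 4 (log2 fold change 0.73 ± 0.20, edgeR adjusted p = 0.140). The neighbouring Fads2, the delta-6 desaturase gene, was at 38.4, 36.7, 14.6 and 52.7 CPM in controls and at 70.1, 55.0, 64.4 and 73.8 CPM in Sirt1-deleted libraries (0.89 ± 0.34, adjusted p = 0.248). For both genes control 3 was the lowest library and control 4 the highest control, and the groups did not overlap. Without the length and GC trend the log2 values were 0.39 for Fads1 and 0.65 for Fads2, where the median of all genes was -0.20.

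Elovl5, which lengthens polyunsaturated fatty acids, was at 67.6, 63.8, 67.4 and 58.6 CPM in controls 1 to 4 and at 88.3, 76.5, 97.5 and 79.8 CPM in Sirt1-deleted 1 to 4. The difference was small and regular, with no overlap and a log2 fold change of 0.41 ± 0.13 (edgeR adjusted p = 0.183). Without the length and GC trend it was 0.19, where the median of all genes was -0.20. For Elovl6, which lengthens saturated fatty acids, the log2 value was 0.07 ± 0.25 (adjusted p = 0.921). Fasn, the fatty acid synthase gene, was at 149, 224, 193 and 119 CPM in controls and at 119, 182, 211 and 191 CPM in Sirt1-deleted libraries. Its ranges coincided almost wholly, and the log2 fold change was 0.04 ± 0.23 (adjusted p = 0.958). The carboxylase gene Acaca (0.29) overlapped as well.

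The stearoyl-CoA desaturase genes Scd1 and Scd2 pointed in opposite directions, and neither was called. Scd2 was at 85.0, 138, 94.3 and 76.5 CPM in controls 1 to 4 and at 138, 84.2, 147 and 136 CPM in Sirt1-deleted 1 to 4 (log2 fold change 0.36 ± 0.24, edgeR adjusted p = 0.512). Scd1 was at 19.96, 0.828, 0.277 and 5.26 CPM in controls and at 0.579, 0.874, 2.85 and 0.923 CPM in Sirt1-deleted libraries. Its log2 fold change of -2.33 ± 1.23 (adjusted p = 0.398) was -0.74 without control 1. Control 1 also had 6436 CPM over 7 mast cell and basophil markers, against 1152 to 2187 in the other controls and 334 to 1227 in the Sirt1-deleted group. The part of those cells in the Scd1 value was not tested.

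**Figure D3:**
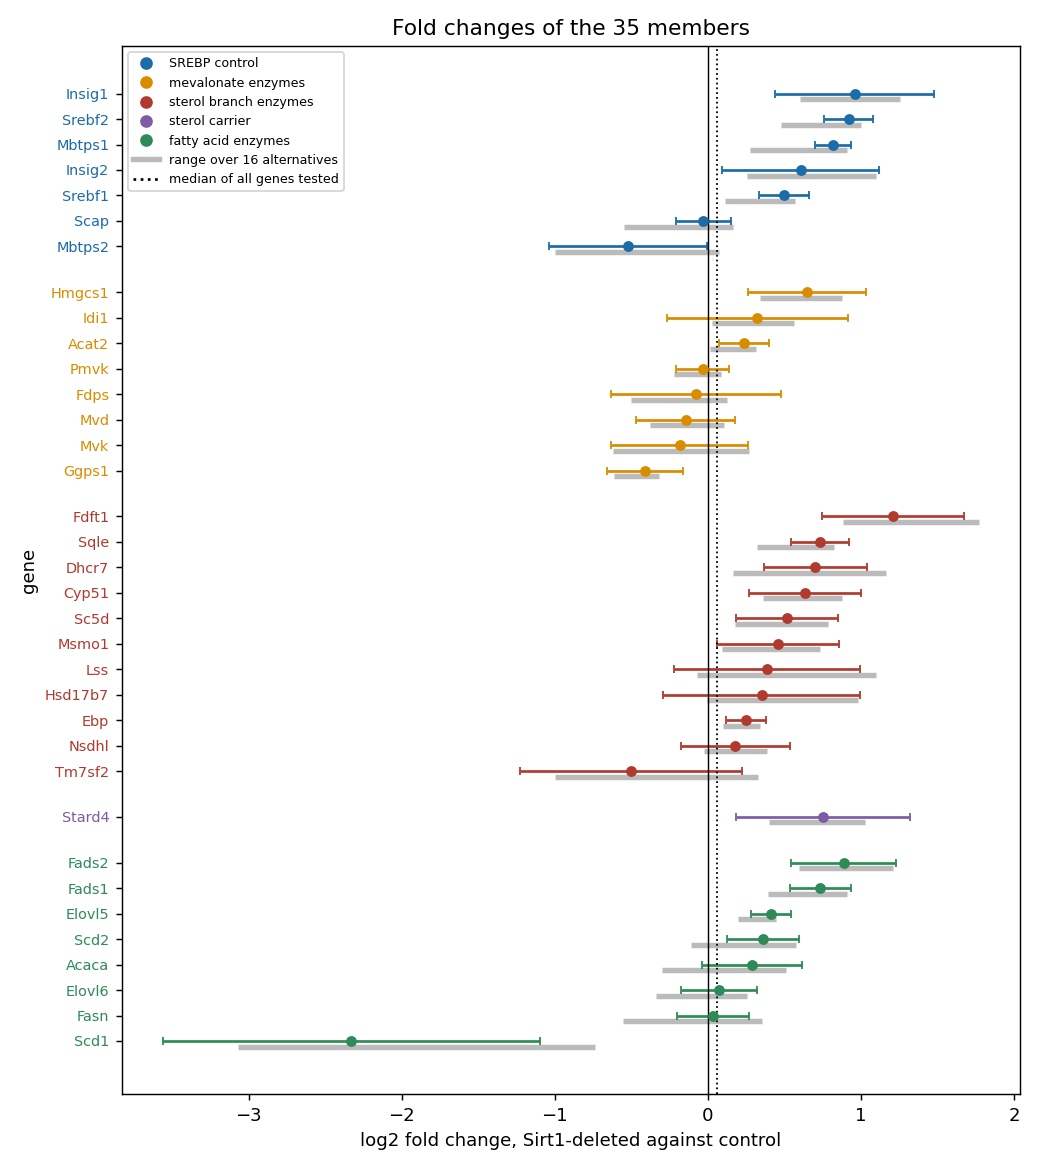
Log2 fold change (x axis, Sirt1-deleted against control) of the 35 members, by group, with its SE as a bar. Grey bars give the range over 16 alternative analyses, and the dotted line is the median of all genes tested, 0.06. Fdft1 has the largest positive value, 1.21, and Scd1 the lowest, -2.33, with the widest error.

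Levels were compared between members per kilobase of annotated exon (CPM per kb), a scale that treats all exons of a gene as used. In controls Ebp (45.2), Pmvk (35.7), Srebf1 (25.4) and Scap (19.8) were the highest, and Acaca (0.536), Fdps (0.571), Idi1 (0.622) and Mbtps2 (0.654) the lowest. On this scale Srebf1 was above Srebf2 in controls (25.4 and 15.1) and closer to it in Sirt1-deleted libraries (35.8 and 28.6). Scd2 was far above Scd1 in both groups (18.0 and 1.35 in controls, 23.1 and 0.267 in Sirt1-deleted libraries).

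Summed over all members, the transcripts made up a larger part of every Sirt1-deleted library. The sums were 1364, 1532, 1414 and 1395 CPM in controls 1 to 4 and 1824, 1729, 2009.7 and 1922 CPM in Sirt1-deleted 1 to 4. Srebf2 and Mbtps1 carried 36.6% of the difference between the group means. Over the remaining 33 genes the groups overlapped narrowly, with 1359 CPM in control 2 and 1353 in Sirt1-deleted 2. The 7 SREBP control genes summed to 479 to 564 CPM (controls) and 700.3 to 775 (Sirt1-deleted), the 20 sterol genes to 401 to 522 and 528 to 613, and the 8 fatty acid genes to 393 to 533 and 501 to 622. Only the fatty acid sums overlapped. In these bulk libraries, more cells with a transcript and more transcript per cell cannot be told apart.

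**Figure D4:**
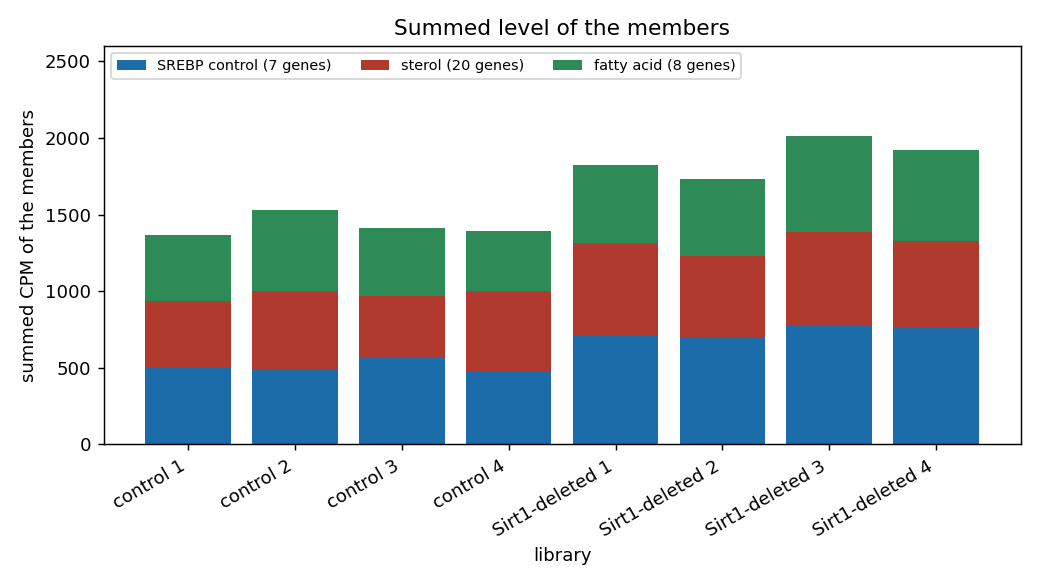
Summed CPM (y axis) of the members in each library, stacked by group, with 7 SREBP control, 20 sterol and 8 fatty acid genes. Controls lie between 1364 and 1532 and Sirt1-deleted libraries between 1729 and 2009.7.

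Markers of several cell types moved with genotype beside these genes. Of 15 markers of stem cells and early progenitors, 11 were higher in every Sirt1-deleted library than in any control, Cd34 and Flt3 among them. Of the rest, 1 was lower (Ly6a), and none of the 15 was at 0 throughout. Of all genes 6.64% were higher and 6.44% lower without overlap. Kit was called, at 37.0 ± 5.05 CPM in controls against 137 ± 21.0 (log2 fold change 1.89, edgeR adjusted p = 0.0145). The sums over the 15 markers were 931 to 1690.2 CPM (controls) and 1427 to 1815 (Sirt1-deleted), and they overlapped through control 1 alone, the other controls being at 931 to 1104. Control 1 had the highest Ly6a (780.2 CPM) and Gata2 (361 CPM) of all libraries. Of 10 granulocyte-monocyte progenitor markers 4 were lower without overlap (6.44% of all genes), with sums of 12949 to 25306 CPM (controls) and 8699 to 14893 (Sirt1-deleted). Csf1r and Irf8 of this list went the other way, with overlap. Their log2 fold changes were 0.76 and 0.44 (edgeR adjusted p = 0.323 and 0.478). The 10 T and NK cell markers summed to 640.3 to 790.01 and 473 to 545 CPM, most of it from Nkg7 (503 to 614 and 406 to 491). Of the 10, 4 were lower without overlap (Nkg7, Cd3e, Ccl5 and Gzma), against 6.44% of all genes. Cd3d, Cd3g, Cd4, Cd8a, Trbc2 and Klrb1c overlapped. The 10 B and plasma cell markers summed to 818 to 2295 and 659 to 5202. The 9 erythroid markers summed to 153 to 233 and 242 to 409.8 CPM. Of these only Car2 was without overlap, at 84.5 to 122 and 153 to 363 CPM, and Tfrc went the other way (log2 fold change -0.52). The 9 macrophage markers, of which Marco was at 0 throughout, summed to 123 to 183 and 118 to 144, and the 7 megakaryocyte markers to 70.9 to 284 and 132 to 257. The part of any of these cells in the values of the members was not tested.

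Other genes of the same pathways that are not members were read from lists. Of 81 such genes 73 were tested, 50 were positive (53.9% of all genes were), and 1 was called (0.0846% of all genes). This was Apoe, the lipid carrier gene and a target of the sterol-activated receptor LXR, which rose from 95.2 ± 30.8 to 329 ± 60.5 CPM (log2 fold change 1.79 ± 0.23, edgeR adjusted p = 0.0487). Of the 73 genes, 0 were called when control 2, 3 or 4 or Sirt1-deleted 2, 3 or 4 was left out, where the whole table had 0 to 4 calls. Among the 9 genes tied to LXR, the efflux transporter gene Abca1 was at 2.27 ± 2.07 and 13.0 ± 8.26 CPM (adjusted p = 0.176).

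Of 17 genes that degrade or transport SREBP precursors and their partners, 0 were called, 14 were positive (53.9% of all genes were) and 4 were higher without overlap (6.64% of all genes were). Erlin2, which binds the precursor complex in the endoplasmic reticulum, was at 14.8 ± 5.23 and 35.5 ± 5.91 CPM (log2 fold change 1.27, edgeR adjusted p = 0.102). Sec24b, a coat protein gene of vesicles that leave that compartment, had 0.74 (0.187). Of 18 genes that store, move or modify sterols, 17 were tested, 10 were positive and 0 called. The cholesterol ester hydrolase gene Nceh1 was at 34.9 ± 9.29 and 70.9 ± 7.13 CPM (1.02, adjusted p = 0.101) and the sterol-binding protein gene Osbp at 33.8 ± 7.54 and 59.8 ± 8.67 (0.82, 0.124).

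Of 12 genes that use isoprenoids, 0 were called and 5 were positive (53.9% of all genes were), with a median log2 fold change of -0.03. Icmt, which methylates prenylated proteins, was at 14.8 ± 6.02 and 40.1 ± 13.8 CPM (edgeR adjusted p = 0.124), and Nus1, a subunit of the enzyme that makes dolichol precursors, at 29.7 ± 5.96 and 19.6 ± 2.25 CPM (adjusted p = 0.211). Of 20 further fatty acid synthesis genes, 14 were tested and 0 called, with a median of 0.19. Hacd1, a dehydratase of fatty acid elongation, was at 35.4 ± 5.87 and 19.0 ± 5.57 CPM (adjusted p = 0.146), and the related Hacd3 had a log2 fold change of 0.45 (0.394). All 4 tested acyl-CoA synthetase genes were positive and 0 called. Acsl1 and Acsl3 had log2 fold changes of 0.70 and 0.80 (adjusted p = 0.256 and 0.278).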

How the data were processed

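RNA from sorted LSK cells of 8 mice, 4 per genotype, was sequenced. Per the labels' protocols, libraries were made with the SMARTer Ultra Low Input kit (v4) and Nextera XT, which do not mark strand and carry no molecular identifiers. The deposited values are whole-number read counts per gene, not normalised. Build GRCm38 and the tools DESeq2 1.20.0, HTSeq 0.9.1, STAR 2.5.3, Trim Galore 0.5.0 and bcl2fastq 2.18.0.12 are named, per the submitters' processing notes. The sources used here give no annotation release or strand setting. The 5 summary rows that name no gene, 33.2 to 40.6% of each library's records, were left out of library sizes and tests. Most were reads with several alignments, so copies of near-identical sequence are undercounted. Symbols were matched for 48349 of 48795 identifiers. A column differs from its sample's title in the last letter (control 4) and was matched on the rest, which no other title has.

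Genes passing filterByExpr (14178) were tested with edgeR 4.0.16 (TMM, robust quasi-likelihood F test, two-sided, R 4.3.3) over all 8 libraries, with genotype as the only term and Benjamini-Hochberg adjustment. SE was taken as |log2 fold change| divided by √F. P-values set the difference between genotypes against the spread between these libraries. Alternatives used DESeq2 1.42.0, limma 3.58.1 and mgcv 1.9.3. GENCODE M21 (GRCm38) gave positions, exon lengths and overlaps. PCR copies are counted. Named genes are all 35 members, with library values for the SREBP control genes, the 8 smallest p and others chosen after their values were seen. In the other lists they are genes called or the 2 of smallest p. Members and lists were chosen with earlier results of these data known. No 2 libraries agreed within sampling noise (mean chi-square per gene at least 64.6). The level of 1 marker gene is not reported here.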

Additional observations from a re-analysis of the deposited data

Results flagged for a closer look

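Values of the 35 members were screened in each group of 4 for a library far from the other 3, by the ratio of its gap to the range of the group. Of 70 such groups 4 passed Dixon's critical value, and chance passes about 1 in 20. Cyp51 was at 36.5 CPM in Sirt1-deleted 3, against 27.1 to 27.9 in the others of its group. Msmo1 was at 5.32 CPM in control 3, against 18.2 to 20.4. Nsdhl was at 7.77 CPM in Sirt1-deleted 1, against 18.7 to 20.9. Scd1 was at 2.85 CPM in Sirt1-deleted 3, against 0.579 to 0.923.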

How the results depend on the processing

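Over 16 alternatives 21 of the 35 members kept the sign of their log2 fold change, among them all 8 with an unadjusted p under 0.05. Those 8 were picked by p from these same libraries, so their kept sign is no separate support. The number of genes called over the whole table was unstable. It was 1129 with DESeq2, 1139 with limma-voom, 21 without immunoglobulin genes and 311 without the library of each group with the fewest detected genes. It was 1 in the titles starting with 2 and 4 (3 libraries per group), 0 with the length and GC trend removed, and 0 to 451 without single libraries. Every title starting with 2 was a control and every title starting with 4 was Sirt1-deleted. The first digit therefore cannot be told apart from genotype. With the length and GC trend removed, 1794 of 14146 genes had an unadjusted p under 0.05. Of the members, 1 was then higher and 1 lower at that threshold, and 20 of 35 were positive. Members called were 5, 3, 1 and 2 in the first 4 of these settings, 0 in the next pair and 0 to 2 without single libraries. Other pathway genes called were 9 with DESeq2, 8 with limma-voom, 3 without the libraries of fewest genes, 0 in the titles starting with 2 and 4, 0 with the trend removed and 0 to 3 without single libraries.

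The median log2 fold change of the SREBP control genes was 0.27 without the libraries of fewest genes and 0.27 with the trend removed, and 0.38 to 0.78 without single libraries. It was lowest without control 2 and highest without control 1. That of the sterol genes was 0.095 with the trend removed and 0.19 to 0.39 without single libraries, and that of the fatty acid enzymes -0.21 and 0.18 to 0.35. Removing the trend moved the median of all genes by -0.26. Relative to all genes, the 3 medians were then 0.47, 0.29 and -0.01, against 0.54, 0.27 and 0.26 before. Limma-voom moved the median of all genes by 0.10. The cause of these changes was not tested.

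Signs turned for 14 members, none of which was called in any setting. With the trend removed, log2 fold changes were -0.073 for Lss, -0.025 for Nsdhl, -0.30 for Acaca, -0.55 for Fasn, -0.11 for Scd2 and -0.34 for Elovl6. The median of all genes in that setting was -0.20. With limma-voom they were 0.17 for Scap, 0.0087 for Mvd, 0.023 for Fdps and 0.33 for Tm7sf2. Without the libraries of fewest genes they were 0.11 for Scap, 0.073 for Mbtps2, 0.13 for Fdps and 0.032 for Tm7sf2. In the titles starting with 2 and 4 they were 0.088 for Pmvk, 0.11 for Mvd, -0.13 for Fasn and -0.062 for Elovl6. Without single libraries the ranges were -0.17 to 0.048 for Scap, -0.76 to 0.015 for Mbtps2, -0.62 to 0.27 for Mvk, -0.22 to 0.034 for Pmvk, -0.38 to 0.015 for Mvd, -0.35 to 0.015 for Fdps, -0.92 to 0.14 for Tm7sf2, -0.0065 to 0.98 for Hsd17b7, -0.10 to 0.15 for Fasn and -0.11 to 0.22 for Elovl6. The shorter motif was found in 3 members where TCACNCCAC was found in 1, and adding the 50 bases after the start changed no count of members. No paired analysis was possible because the labels number no replicates.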
